A study of Homo sapiens with 3 samples.

Results

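The keratin gene clusters of chromosomes 12 and 17 were examined for binding of p63 and ZNF148 in FaDu cells. Peaks were taken when their summit, the point of highest enrichment, lay in chr12:52550000-53360000 or chr17:38800000-39800000 of the hg19 build, whatever their strength. The first window, 810 kb long, was drawn to span the type II keratin cluster from KRT80 to KRT18, a type I keratin gene at its end. The second, 1000 kb long, was drawn to span the type I keratin and keratin-associated genes up to KRT14, KRT16 and KRT17. Together they held 42 of 21520 p63 peaks and 70 of 37883 ZNF148 peaks. FaDu is an established line from a squamous cell carcinoma of the pharynx and was grown untreated for every library. The series has 3 samples: 1 library from chromatin immunoprecipitation with an antibody to ΔNp63α, 1 with an antibody to ZNF148, and 1 input library without antibody. The protocols name 3 independent immunoprecipitations as the source of DNA, but each antibody has 1 peak list, so no value has a replicate error and no p-value is given. Read depth is unknown. Peak lists carry no RNA level, so which keratins these cells express was not measured here.

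Keratins are the intermediate filament proteins of epithelial cells. Filaments form from pairs of 1 type I (acidic) and 1 type II (basic) keratin. The genes of each type lie side by side in a cluster, except that the type I gene KRT18 lies beside the type II genes. KRT5 and KRT14 mark the basal layer of stratified epithelia, KRT1 and KRT10 the layers above it in skin, and KRT4 and KRT13 those of moist mucosa. KRT6A, KRT6B, KRT6C, KRT16 and KRT17 are known to be raised in wounded and proliferating epithelium. KRT8 and KRT18 pair in simple epithelia, and the keratins of hair are made in the hair shaft together with the keratin-associated proteins. p63 is a p53 family transcription factor required for stratified epithelia, with KRT5 and KRT14 among its best known targets. ZNF148, a transcription factor with zinc fingers, is known to bind G-rich DNA. In the RefSeq gene order (GRCh38.p14), the run from KRT80 to KRT18 holds 27 protein-coding genes, all of them keratins, and the run from KRT222 to KRT17 holds 62, of which 28 are keratins and 34 are keratin-associated protein genes. Peak positions are in hg19, for which no annotation was used here, so no peak is assigned to a gene.

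The promoters of these genes were searched for letters that p53 family proteins and G-rich binders are known to prefer. RefSeq promoters (GRCh38.p14) were matched for 14 of 27 genes of the type II list, in 15 promoters, and for 20 of 28 genes of the type I list, in 23 promoters. KRT18 is counted in the type II list and was not matched. The 250 bases before the transcription start were read on both strands. The p53 family half-site consensus was found in 4 of 15 type II promoters (26.7%, exact 95% interval 7.79 to 55.1%) and in 3 of 23 type I promoters (13.0%, 2.78 to 33.6%), beside 5.57% of all 35116 promoters. These 7 stretches are shown because they are the only matched keratin promoters with that consensus. Each runs up to 20 bases to either side of the match within the 250 bases, 5′ to 3′ on the gene's strand, and capitals mark the half-site. All lie on the minus strand. Their positions are in GRCh38.p14 and cannot be set against the hg19 positions of the peaks.
KRT5 (chr12:52520462-52520511): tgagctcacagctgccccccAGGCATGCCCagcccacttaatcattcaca
KRT2 (chr12:52652353-52652402): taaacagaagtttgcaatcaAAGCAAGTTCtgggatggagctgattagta
KRT76 (chr12:52777517-52777566): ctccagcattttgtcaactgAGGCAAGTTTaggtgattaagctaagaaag
KRT8 (chr12:52926576-52926625): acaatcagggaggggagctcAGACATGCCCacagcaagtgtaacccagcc
KRT25 (chr17:40755341-40755390): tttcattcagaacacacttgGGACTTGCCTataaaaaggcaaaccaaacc
KRT10 (chr17:40822821-40822864): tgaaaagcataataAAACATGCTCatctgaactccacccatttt
KRT20 (chr17:40885243-40885285): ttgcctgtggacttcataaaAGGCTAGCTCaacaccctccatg

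In the half-sites of KRT5, KRT8 and KRT10 the central letters were CATG. KRT2 and KRT10 are skin keratins of the upper layers, KRT25 belongs to the inner root sheath of hair, KRT20 to gut and urothelium and KRT76 to the oral mucosa. The list of hair shaft keratins, KRT31 to KRT40 and KRT81 to KRT86, leaves out follicle keratins such as KRT25. None of its 18 matched promoters, from 14 genes, held the consensus (upper exact limit 18.5%). Some promoters of KRT40 overlap each other, and the exact intervals take all promoters as independent. Of the promoters of keratin-associated genes, 3 of 33 held the consensus (9.09%, 1.92 to 24.3%). The basal keratins KRT14 and KRT15 and the wound keratins KRT6A, KRT6B, KRT6C, KRT16 and KRT17 were not matched. The G-rich motif CCCTCCCC and the GC box GGGCGG were searched in the same way, and they did not overlap each other in KRT75, the one matched keratin promoter that held both. CCCTCCCC was found in 1 of 15 type II and 0 of 23 type I promoters, beside 12.7% of all promoters, and GGGCGG in 1 of 15 and 3 of 23, beside 42.6%. The promoters with GGGCGG were those of KRT75, KRT37, KRT38 and KRT9. KRT75 is a keratin of the hair follicle, and its stretches are shown for that pair of motifs, on the gene's minus strand, with the motif in capitals.
KRT75, CCCTCCCC on the opposite strand (chr12:52434520-52434567): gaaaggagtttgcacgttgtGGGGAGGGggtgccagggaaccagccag
KRT75, GGGCGG on the opposite strand (chr12:52434396-52434441): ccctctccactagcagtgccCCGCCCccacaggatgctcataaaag
A match describes letters only, and its absence says nothing about binding elsewhere in a gene.

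Peaks of both proteins were dense in the type II window. It held 23 p63 peaks, or 28.4 per Mb, beside 8.30 per Mb on the rest of chromosome 12 and 7.30 per Mb over all chromosomes. ZNF148 had 48 peaks there, or 59.3 per Mb, beside 15.1 per Mb on the rest of chromosome 12 and 12.8 per Mb over all. When all chromosomes were divided into 3479 stretches of 810 kb with at least 1 peak, the median stretch held 5 p63 and 7 ZNF148 peaks. At least as many p63 peaks as in the type II window occurred in 20 of these stretches (0.575%), and at least as many ZNF148 peaks in 88 (2.53%). Lengths run from the first to the last peak of a chromosome. Copy number, which can change the number of peaks called in a region, was not measured.

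In the type I window the proteins differed when set beside the rest of chromosome 17. It held 19 p63 peaks, or 19.0 per Mb, which was above the 10.7 per Mb of the rest of chromosome 17. Its 22 ZNF148 peaks, or 22.0 per Mb, were below the 30.8 per Mb of the rest of that chromosome, which is rich in ZNF148 peaks. Both densities of the window were above those over all chromosomes, 7.30 per Mb for p63 and 12.8 per Mb for ZNF148. Among 2840 stretches of 1000 kb the median held 6 p63 and 9 ZNF148 peaks, and 112 (3.94%) and 460 (16.2%) of them held at least as many as this window. With a −log10 q of at least 10 the type I window held 12 ZNF148 peaks in place of 22 and 18 p63 peaks in place of 19. That limit shortens the ZNF148 list everywhere. Ranked by significance, a ZNF148 peak with a −log10 q of 10.1 stood at the top 63.5% of all ZNF148 peaks. A p63 peak with 9.29 stood at the top 92.6% of all p63 peaks. In the whole lists there were 1.16 ZNF148 peaks per p63 peak in the type I window and 2.09 in the type II window, against 2.89 on the rest of chromosome 17, 1.81 on the rest of chromosome 12 and 1.76 over all chromosomes.

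Medians over both windows were near those of all peaks. p63 peaks with a fold of 10 or more were more frequent in the type II window than over all chromosomes. The exact interval of that share only just missed the share of all peaks. The deposited fold enrichment, a peak's height over its local background, had a median of 13.8 over the 42 p63 members (quartiles 10.2 and 24.8), against 13.2 over all p63 peaks. For the 70 ZNF148 members the median was 9.81 (quartiles 6.76 and 18.5), against 9.83 over all ZNF148 peaks. A fold of 10 or more was reached by 32 of 42 p63 members (76.2%, 60.5 to 87.9%), where 65.1% of all p63 peaks did, and by 35 of 70 ZNF148 members (50%, 37.8 to 62.2%), where 49.6% of all did. The p63 shares were 20 of 23 in the type II window (87.0%, 66.4 to 97.2%) and 12 of 19 in the type I window (63.2%, 38.4 to 83.7%). For ZNF148 they were 26 of 48 (54.2%, 39.2 to 68.6%) and 9 of 22 (40.9%, 20.7 to 63.6%). For p63 in the type II window the lower limit of 66.4% lies just above the 65.1% of all p63 peaks. Members with folds of 10.1, 10.4, 10.4 and 10.6 stood just above the cut of 10 in that window. The 3 below the cut had folds of 5.55 to 6.86. Shares at other cuts were not compared, and the median there was 14.3, against 13.2 over all p63 peaks. The other 3 intervals hold the share of all peaks of their list. Of the 23 p63 peaks in the type II window, 5 were among the top 10% of the list by significance (21.7%, 7.46 to 43.7%). That interval holds the 10% of all p63 peaks. The intervals of the windows overlap for both proteins.

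**Figure D1:**
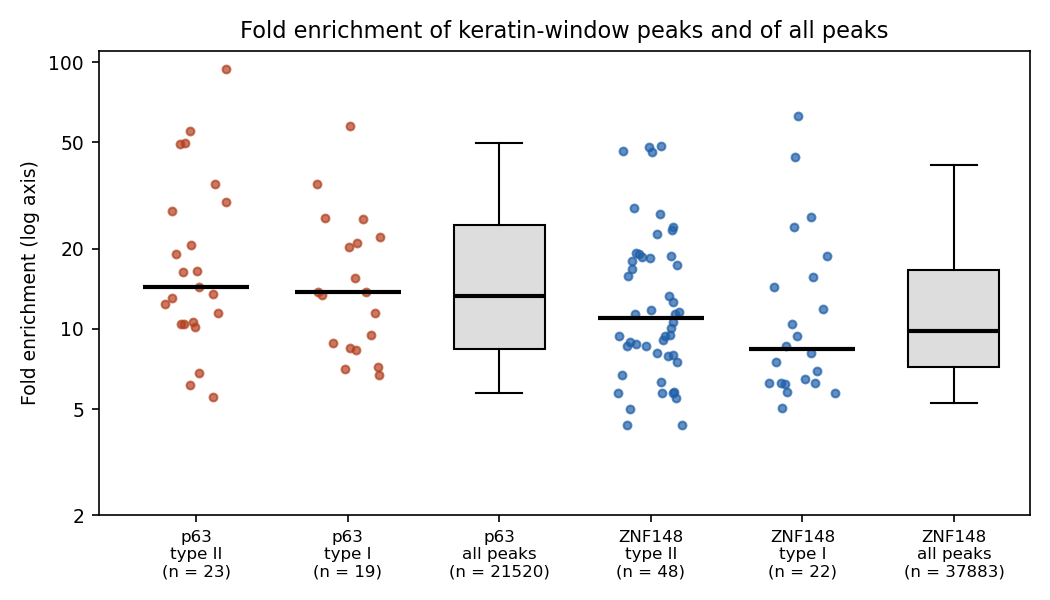
Fold enrichment (log axis) of each p63 and ZNF148 peak in the keratin windows, as points with the median as a bar, beside all peaks of the same list as a box of quartiles with whiskers at the 5th and 95th percentiles. Medians in the type II and type I windows are 14.3 and 13.7 for p63 and 11.0 and 8.39 for ZNF148, and single members reach 94.6 for p63 and 62.9 for ZNF148.

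The strongest p63 site of either cluster stood near the KRT80 end of the type II window. This peak, at chr12:52569817-52570187, had a fold of 94.6 and a −log10 q of 388, and was number 13 of all 21520 p63 peaks. No ZNF148 peak overlapped it. The nearest ZNF148 summit lay 7.13 kb away, at chr12:52576980-52577248, with a fold of 11.4. The next p63 member of the type II window, at chr12:52732424-52732707, had a fold of 55.2 and was likewise unshared, with a ZNF148 summit 3.14 kb away.

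A pair of neighbours in the middle of the window followed. The peak at chr12:52973945-52974376 had a fold of 49.9, and its neighbour at chr12:52976663-52976969 one of 34.8. Only the latter overlapped a ZNF148 peak. At chr12:53270139-53270547 p63 had a fold of 49.4, and a ZNF148 peak overlapped that peak. The other p63 members among the 10 most significant of this window were unshared at chr12:52609417-52609727 (fold 29.9), chr12:53066175-53066462 (fold 27.7) and chr12:52674324-52674642 (fold 20.6), and shared at chr12:53261605-53261923 (fold 19.2) and chr12:52914993-52915379 (fold 14.3). The remaining 13 had folds of 5.55 to 16.5, and the weakest was at chr12:52930999-52931164.

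Of the 4 strongest ZNF148 sites of the type II window, 3 did not overlap p63. The most significant, at chr12:52637641-52638069, had a fold of 48.2, and the nearest p63 summit was 13.0 kb away. The peaks at chr12:52585747-52586175 (fold 46.0) and chr12:52627754-52628137 (fold 46.3) had p63 summits 16.0 and 3.12 kb away. The shared site was chr12:53270261-53270565, with a fold of 48.3, which overlapped the p63 peak of fold 49.4. Folds of 19.3 to 28.4 were found for the other 6 of the 10 most significant ZNF148 members, at chr12:53271782-53272098 (28.4), chr12:52739297-52739552 (26.9), chr12:53300842-53301344 (24.1), chr12:52608005-52608393 (23.5), chr12:52976603-52976877 (22.6) and chr12:52641164-52641518 (19.3). Of these 6, only the peak of fold 22.6 overlapped a p63 peak.

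**Figure D2:**
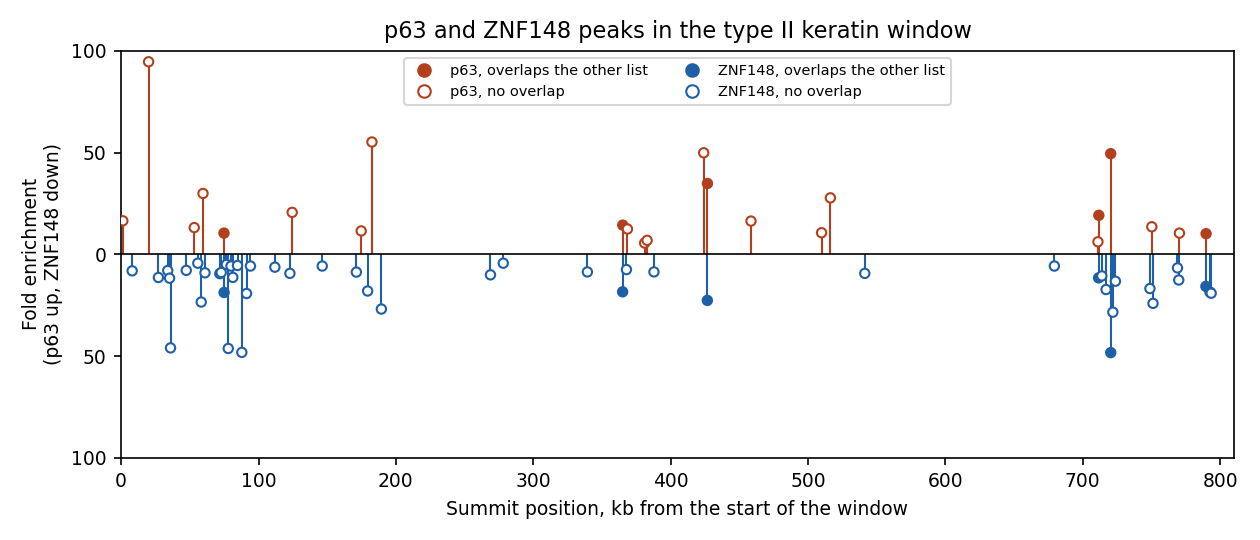
Peaks along the type II keratin window, with the summit position in kb from the window's start and the fold enrichment drawn upward for p63 (n = 23) and downward for ZNF148 (n = 48). Filled points overlap a peak of the other list, which holds for 6 peaks of each protein, and the p63 peak of fold 94.6 near the start is not one of them.

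ZNF148 peaks were most frequent at the ends of the type II window, and p63 peaks at the ends and in the middle. In 5 equal parts of 162 kb, from the KRT80 to the KRT18 end, ZNF148 had 23, 5, 5, 1 and 14 peaks and p63 had 6, 2, 7, 2 and 6. The first part thus held 47.9% of the ZNF148 and 26.1% of the p63 peaks of the window. The densest run of ZNF148 was chr12:52576980-52644191, where 19 peaks followed each other at no more than 12.5 kb, with folds of 4.38 to 48.2. Only 3 p63 peaks lay inside it, and 1 of the 19 was shared. Toward the other end, 6 ZNF148 peaks stood in 12.7 kb at chr12:53261283-53273936 and included the shared peak of fold 48.3.

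Between the ends lay stretches with few peaks. No p63 peak was found from chr12:52732708 to 52914992. Between the p63 summits on its sides, 183 kb apart, 5 ZNF148 summits lay, of which the last belongs to a pair with the second p63 peak. Nor was there a p63 peak from chr12:53066463 to 53261007, where ZNF148 had 2 summits. ZNF148 was absent from the list between chr12:53091451 and 53229225, where p63 had none either. No ZNF148 peak lay from chr12:52976878 to 53091232, and between the ZNF148 summits on its sides p63 had 4, the first of them in a pair. Of 17 bins of 50 kb, 9 held both proteins, 1 only p63, 3 only ZNF148 and 4 neither (the last bin is 10 kb long). Neighbouring ZNF148 summits were a median of 3.43 kb apart and p63 summits 19.1 kb.

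The strongest p63 site of the type I window coincided with ZNF148. At chr17:39362552-39362870 p63 had a fold of 57.8 and was number 1081 of its list. The ZNF148 peak there, at chr17:39362493-39362862, had a fold of 44.0 and was number 1888 of its own. Their summits were 3 bp apart. By p63 fold this was the strongest of the 10 pairs.

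The next p63 member, at chr17:39675823-39676191 with a fold of 34.9, also overlapped ZNF148. The following 5 by significance did not. Their folds were 26.0 at chr17:39457768-39458043, 25.7 at chr17:39113056-39113396, 21.0 at chr17:39777401-39777710, 22.1 at chr17:38891326-38891575 and 20.2 at chr17:39504560-39504818. The last 3 of the 10 were the unshared peaks at chr17:39523703-39523943 (fold 13.8) and chr17:39560295-39560581 (fold 15.4) and the shared peak at chr17:39771777-39771983 (fold 13.7). The other 9 had folds of 6.73 to 13.4.

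ZNF148 had its strongest keratin peak at chr17:39684473-39684905, with a fold of 62.9 and the number 344 in its list. It did not overlap p63, and the nearest p63 summit was 8.64 kb away. After it came the shared peaks of fold 44.0, of 26.3 at chr17:39694816-39695124 and of 24.1 at chr17:39675713-39676184. The other 6 of the 10 were unshared, with folds of 18.7 at chr17:39692061-39692522, 15.6 at chr17:39681602-39681918, 14.4 at chr17:39776448-39776766, 11.9 at chr17:39700745-39700966, 10.4 at chr17:39704314-39704556 and 9.38 at chr17:39656695-39656997. The remaining 12 were weak, with folds of 5.05 to 8.66.

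**Figure D3:**
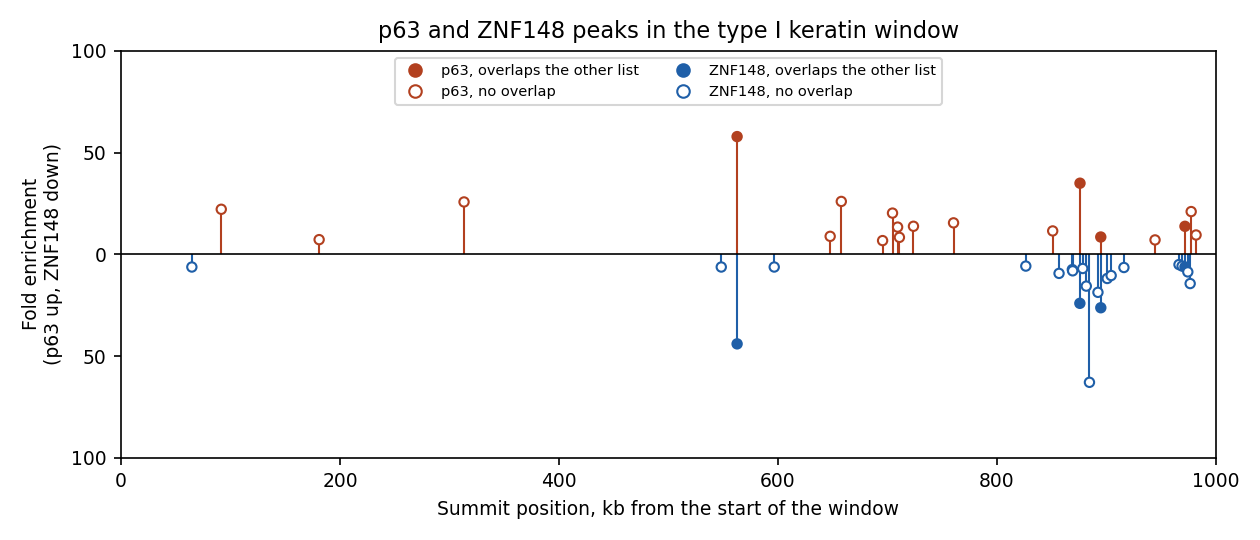
Peaks along the type I keratin window, with the summit position in kb from the window's start and the fold enrichment drawn upward for p63 (n = 19) and downward for ZNF148 (n = 22). Filled points overlap a peak of the other list; from 600 to 800 kb there are 8 p63 peaks and no ZNF148 peak.

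Most ZNF148 peaks of the type I window, 18 of 22, lay in its last 200 kb, the end drawn to hold KRT14, KRT16 and KRT17. In 5 equal parts of 200 kb ZNF148 had 1, 0, 3, 0 and 18 peaks, with 81.8% in the last part. p63 had 2, 1, 1, 8 and 7 peaks in the same parts. The fourth part separated the proteins: its 8 p63 peaks, from chr17:39447615 to 39560581 with folds of 6.73 to 26.0, stood in a stretch without a ZNF148 peak that ran from chr17:39396745 to 39626400. These 8 were the longest run of p63 peaks uninterrupted by ZNF148 in either window. Within it 4 p63 peaks followed each other in 15.6 kb at chr17:39495514-39511095.

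The first 3 parts of the type I window had few peaks of either protein. ZNF148 summits were 484 kb apart between chr17:38864646 and 39348172, with 3 p63 peaks in that stretch, 2 of them with folds above 20. The longest p63 spacing was 249 kb, from chr17:39113397 to 39362551. Of 20 bins of 50 kb, 5 held both proteins, 6 only p63, 2 only ZNF148 and 7 neither. In the last part, 12 ZNF148 peaks stood in 59.5 kb at chr17:39656695-39716202, the run that held the peak of fold 62.9, and 2 of them were shared.

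The series title names cooperation of p63 and ZNF148, and overlap of their peaks shows which keratin sites were called in both lists. Whether both proteins were bound there at the same time was not measured. Overlap by at least 1 bp was found for 10 of 42 p63 members (23.8%, 12.1 to 39.5%), near the 21.2% of all p63 peaks. It was found for 10 of 70 ZNF148 members (14.3%, 7.07 to 24.7%), near the 12.1% of all ZNF148 peaks. The rest of chromosome 12 had 19.6% of p63 peaks shared and the rest of chromosome 17 had 15.7%. By window, 6 of 23 p63 members were shared in the type II window (26.1%, 10.2 to 48.4%) and 4 of 19 in the type I window (21.1%, 6.05 to 45.6%). The intervals are exact binomial ones; they hold counting error alone and take each peak as an independent draw.

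In the type II window the summits of pairs were mostly farther apart than those of shared sites over all chromosomes. A ZNF148 summit within 25 bp was found for 2 of 42 p63 members (4.76%, 0.582 to 16.2%), where 13.5% of all p63 peaks had one, a share inside that interval. From the side of ZNF148, 2 of 70 members (2.86%, 0.348 to 9.94%) had a p63 summit this close, where 7.67% of all ZNF148 peaks did. All chromosomes had a median summit distance of 15 bp over 4560 shared p63 peaks, and the 10 keratin pairs one of 81 bp. None of the 23 p63 peaks of the type II window had so close a summit, and the exact interval of that share reaches 14.8%, above the 13.5% of all p63 peaks. For ZNF148 it was 0 of 48, with an interval up to 7.40%, beside 7.67% of all ZNF148 peaks. With 6 and 4 pairs the windows cannot be ranked.

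In the type II window the pair with the nearest summits was chr12:53270139-53270547, where folds of 49.4 for p63 and 48.3 for ZNF148 were 36 bp apart. At chr12:52976663-52976969 the folds were 34.8 and 22.6 and the distance 78 bp. At chr12:52914993-52915379 they were 14.3 and 18.4, at 84 bp. ZNF148 was thus the higher of the folds in some pairs and p63 in others, although folds of different lists also carry the depth and background of each library. The pair at chr12:52624721-52625111 had folds of 10.4 and 18.8 at 98 bp. At chr12:53339679-53339940 the folds were 10.1 and 15.8 at 143 bp, and at chr12:53261605-53261923 they were 19.2 and 11.6 at 149 bp.

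In 3 pairs the ZNF148 interval held 2 summits, and the p63 summit lay between them, nearer to the weaker. At chr12:53261605-53261923 the weaker ZNF148 summit (fold 9.48) was 62 bp from that of p63. At chr12:53339679-53339940 the weaker summit (fold 9.82) was 76 bp away. At chr17:39675823-39676191 the summits of folds 24.1 and 8.84 were 128 and 121 bp away. No p63 member had more than 1 summit, which only 182 of all 21520 p63 peaks had. For ZNF148 it was 3 of 70 members and 1354 of all 37883 peaks.

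The 2 pairs with the closest summits lay in the type I window. Besides the one of 3 bp already given, that at chr17:39771777-39771983 had summits 2 bp apart with folds of 13.7 for p63 and 6.21 for ZNF148. At chr17:39694871-39695034 the distance was 30 bp, and ZNF148 had a fold of 26.3 against 8.49 for p63. The remaining pair of this window, at chr17:39675823-39676191, had main summits 128 bp apart. Over the 10 pairs the p63 fold was the higher in 6, and over all chromosomes in 2670 of 4560. Shared p63 members had a median fold of 16.7 (8.49 to 57.8) and the 32 unshared ones 13.4 (5.55 to 94.6). Over all chromosomes the shared p63 peaks had 26.2 and the unshared 11.7. For ZNF148 the 10 shared members had a median fold of 20.7 (quartiles 16.4 and 25.7) and the 60 unshared ones 9.23 (6.45 and 15.9). Over all ZNF148 peaks these medians were 23.8 and 9.26.

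A further 5 p63 members lay within 1 kb of a ZNF148 peak without touching it. The gap was 66 bp at chr12:53320265-53320531 and 126 bp at chr12:53261008-53261156, a weak p63 peak of fold 6.14 beside the same ZNF148 interval as its stronger neighbour. It was 424 bp at chr12:53300179-53300417 and 444 bp at chr12:52918420-52918690. The only such case in the type I window was chr17:39777401-39777710, 634 bp from a ZNF148 peak of fold 14.4.

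Distances from p63 to ZNF148 are given over all p63 members, shared ones included. In the type II window the median distance from a p63 summit to the nearest ZNF148 summit was 1.65 kb, and 20 of 23 lay within 10 kb. In the type I window it was 51.1 kb, and 7 of 19 did. Over all chromosomes the median was 11.7 kb. At distances above 100 kb were 6 of 19 type I members (31.6%) and 0 of 23 type II members, against 10.0% of all p63 peaks. The 6 stood in 2 stretches without a ZNF148 peak, chr17:38864646-39348172 and chr17:39396745-39626400, so they are not separate cases. The other way round, ZNF148 members were a median of 3.41 kb from p63 in the type II window and 5.77 kb in the type I window, against 20.7 kb over all, and none was farther than 100 kb. The density of each list sets part of these distances, and that part was not tested.

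**Figure D4:**
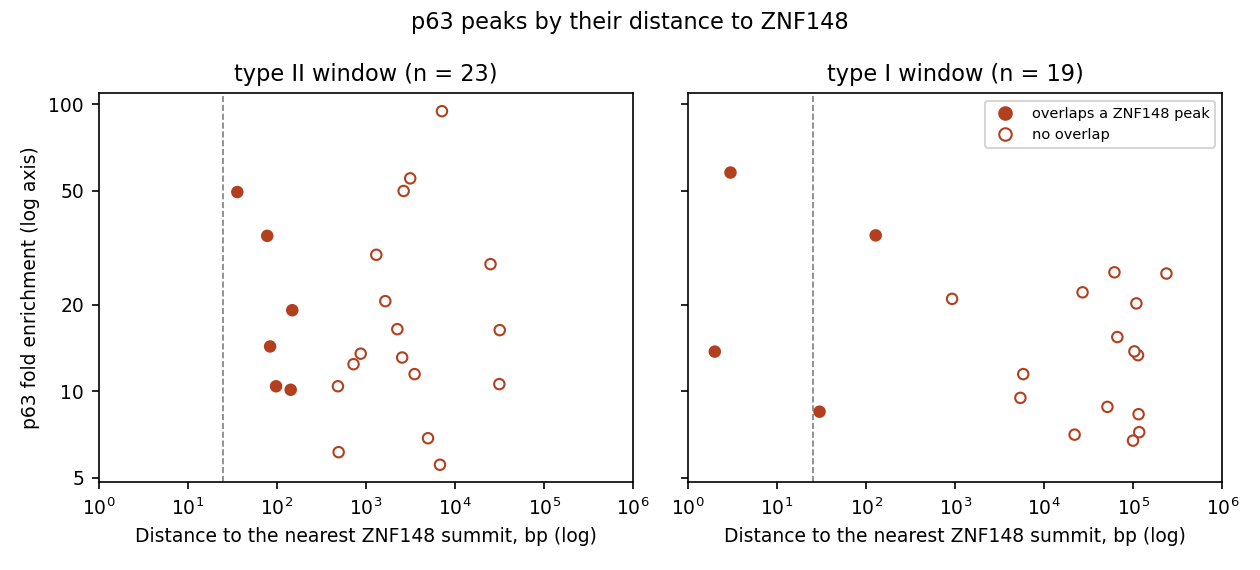
Fold enrichment of each p63 peak (log axis) against the distance from its summit to the nearest ZNF148 summit in bp (log axis), by window; filled points overlap a ZNF148 peak and the dashed line marks 25 bp. In the type I window 12 of 19 peaks stand beyond 10 kb, in the type II window 3 of 23.

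Peaks of both proteins lay closer to the other window ends than to the start of the type I window. At the KRT80 side a p63 peak of fold 19.0 stood 0.628 kb before the window, and the first member, at chr12:52551080-52551345 with a fold of 16.5, 1.21 kb inside it. The last type II members were 20.2 kb (p63) and 16.5 kb (ZNF148) from the end. Beyond the type I window the next p63 peak, of fold 40.5, followed after 8.01 kb, and the next ZNF148 peak, of fold 26.9, after 4.41 kb. At the start of the type I window the nearest peaks outside were 61.3 kb (p63) and 74.4 kb (ZNF148) away. The first members lay 91.4 kb (p63) and 64.6 kb (ZNF148) inside it.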

How the data were processed

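Binding was measured by ChIP-seq, and the authors deposited 1 narrowPeak list for p63 and 1 for ZNF148. The input library was not analysed here as values. Per the submitters' processing notes the build was hg19 and the tools included MACS2 2.2.6, Bowtie2 2.3.4.3, MultiQC 1.12, SAMtools 1.7 and FastQC 0.11.9. Their settings, the control library and the handling of duplicates were not given in the sources used here. Each peak has the authors' fold enrichment (a ratio), −log10 q, −log10 p and summit. The authors' score, unused here, is −log10 q multiplied by 10 and rounded down in every row. The lowest −log10 q is 3.01 (p63) and 3.02 (ZNF148).

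Chromosomes 1 to 22 and X were kept. Rows with equal start and end were treated as 1 peak with the most significant summit, so 73 ZNF148 rows gave 70 members; distances use that summit. Positions are 1-based. Peaks named are all overlapping pairs, members within 1 kb of each other, members at window edges and the 10 most significant per window and list. The windows and gene lists were chosen with earlier results of these data known. Intervals are exact (Clopper-Pearson) at 95%. Functions were checked on made-up lists with planted overlaps. Python 3.11.15, numpy 2.4.6, scipy 1.17.1 and matplotlib 3.10.9 were used.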

Additional observations from a re-analysis of the deposited data

How the results depend on the processing

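Of 42 recomputed values, 40 stayed near the reported one and 2 moved; none could change direction, since counts, shares and medians have none. A count was taken as near within 1.5 times, a share or median within its 95% interval, and with 42 and 70 members these intervals are wide. Both values that moved are of ZNF148 with a −log10 q of at least 10: its peaks in the type I window fell from 22 to 12, and the median fold of its members became 15.0, as weak peaks leave the list by construction. The alternatives run were q and fold limits, every summit row, intervals in place of summits, merging within 1 kb, other overlap rules and lists of equal length. The share of p63 members shared with ZNF148 ranged from 16.7% (summits within 100 bp) to 35.7% (edges within 1 kb). That of ZNF148 members ranged from 10.0% (summits within 100 bp) to 22.0% (lists of equal length, 41 members left). Shares of all peaks under these alternatives are not given, so both ranges describe the members only. The p63 count stayed at 21 to 23 in the type II and 18 to 19 in the type I window. Without read counts, whether a site missing from a list was bound more weakly or not at all cannot be told apart.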
